A study of Saccharomyces cerevisiae with 24 samples.

Results

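Sub-nucleosomal peaks at 5 genes of the meiotic programme, NDT80, IME2, IME1, SPO13 and SPO11, were followed in budding yeast (Saccharomyces cerevisiae, W303 background, MATa) passing through 1 mitotic S phase. Every peak whose position lay in 1 of the 5 genes or in the DNA before it was taken, which gave 67 of the 58467 peaks of the series. The windows held 15 peaks at NDT80, 16 at IME2, 14 at IME1, 9 at SPO13 and 13 at SPO11. Of these, 26 lay upstream of their gene's start codon, 39 inside the gene and 2 beyond the end of SPO13. A peak was called high-confidence when its log2(reads + 1), with reads scaled to the mean library total, summed to more than 75 over the 24 libraries. This held for 12 of the 67 peaks and for 8217 of all peaks. The lowest member sum above that limit was 76.8 and the highest below it was 72.6.

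The overexpression strain was sml1∆ SSDDCS, in which galactose overexpresses 6 limiting replication initiation factors (Cdc45, Dbf4, Dpb11, Sld2, Sld3 and Sld7). The factors come from integrated constructs at LEU2, HIS3 and TRP1 with GAL1-10 promoters, with Sld3 and Dbf4 as their -A forms. SML1 is replaced by a cassette labelled HphNT for these samples and given as HphMX in the study's strain list. The control strain was sml1∆ with SML1 replaced by URA3 and without the constructs. Both strains also carry the W303 alleles ade2-1, ura3-1, trp1-1 and can1-100, together with his3-11, 15, leu2-3, 112 and rad5-535, and in both the loss of the ribonucleotide reductase inhibitor Sml1 raises the dNTP supply. Each culture was arrested in G1 with alpha factor, held in galactose for 30 min and released, and was sampled in G1 and at 5, 10, 15, 20, 25, 30, 35, 40, 45, 50 and 60 min. Every strain and time point had 1 library from 1 culture, so no replicate error exists. No significance test was run, because time points of 1 culture are not replicates of a strain, and the intervals given are 95% Wilson intervals that cover counting error only.

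Meiotic genes are kept silent in cells that divide by mitosis. Ume6 binds the URS1 element and recruits the Sin3-Rpd3 histone deacetylase and the Isw2 chromatin remodeller to early meiotic promoters, and Sum1, with Hst1 and Rfm1, binds the middle sporulation element (MSE) and silences middle genes. IME1 encodes the transcription factor that starts the programme, IME2 a protein kinase that carries it forward, and NDT80 the transcription factor that turns on middle genes. SPO11 encodes the enzyme that makes meiotic double-strand breaks and SPO13 a regulator of the meiosis I division. In haploid cells IME1 is further repressed by Rme1, which drives the noncoding RNA IRT1 across the IME1 promoter. The counts hold no RNA measurement, so whether the genes were silent in these cultures was not tested. By qPCR, the study reported that IME2 and NDT80 were expressed in S phase in SSDDCS and not in control. Its RNA-seq also counted both among genes with high S phase expression in SSDDCS. In its qPCR that expression was lost when origins next to each gene were deleted. It also described altered nucleosome positions at the Ume6 sites of NDT80 in SSDDCS.

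Library totals, that is the reads summed over all peaks, were between 481930 and 518046 in SSDDCS and between 484807 and 536253 in control. This leaves few reads for any single peak. The median of all peaks was 4.62 normalised reads per library, the 12 high-confidence peaks of the meiotic genes averaged 8.80 to 14.7, and the other 55 averaged 1.37 to 7.93. Peaks of 1 chromosome lay 100 bp or more apart on a grid of about 50 bp, so a peak position locates a footprint no more finely than that grid. The GAL1-GAL10 promoter, of which SSDDCS carries extra copies, averaged 175 ± 31.0 normalised reads in SSDDCS and 45.0 ± 7.58 in control (SD over 12 time points). At 5 min, 39.1% of the SSDDCS reads outside the ribosomal DNA fell in high-confidence peaks, against 45.1% in control.

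The letters searched within 50 bp of each peak, on both strands, were GGCGGC, the core of URS1, and GNCACAAA, the core of the MSE. Sequences are from the RefSeq genome of the R64 build, the build of the counts, and are written 5′ to 3′ on the strand of the gene. GGCGGC lay within 50 bp of 2 of the 67 peaks (2.99%), and both were high-confidence peaks of IME2. It lay near 2.10% of all peaks and 3.88% of all high-confidence peaks, and in 18.3% of all 1000 bp upstream windows. The IME2 pair is shown because its 2 copies of GGCGGC, in capitals, begin 550 and 455 bp before the start codon, 20 and 15 bp from the centres of neighbouring peaks at -568 and -468 bp (chrX:220772-220972, + strand).
IME2 paired URS1 peaks: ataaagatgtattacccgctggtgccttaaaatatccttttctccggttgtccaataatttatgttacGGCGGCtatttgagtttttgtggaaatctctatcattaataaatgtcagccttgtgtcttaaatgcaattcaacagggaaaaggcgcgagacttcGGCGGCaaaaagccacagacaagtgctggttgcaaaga

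The strongest peak of NDT80 had no GGCGGC but held the shorter GCGGC in 2 copies, 293 and 264 bp before the start, with an MSE beginning 221 bp before it (all in capitals; chrVIII:356248-356348, + strand).
NDT80 strongest peak: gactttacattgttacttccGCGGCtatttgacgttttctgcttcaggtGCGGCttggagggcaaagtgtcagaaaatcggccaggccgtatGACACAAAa
GCGGC is part of GGCGGC, was searched after the values were seen, and lay near 6 of the 67 peaks (8.96%), against 7.78% of all peaks, and 4 of the 12 high-confidence peaks, against 14.0% of all high-confidence peaks. GNCACAAA lay near 3 of the 67 peaks (4.48%), against 1.44% of all peaks. Upstream of NDT80 it also began 678 bp before the start, near a peak that averaged 4.43 reads. A further copy began 85 bp before the start, 118 bp from the nearest peak.

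SPO13 has GGCGGC on its opposite strand, GCCGCC below, 95 bp before the start codon, and the nearest peak, at -173 bp, was 80 bp away and averaged only 3.69 reads (chrVIII:131902-132007, + strand).
SPO13 URS1: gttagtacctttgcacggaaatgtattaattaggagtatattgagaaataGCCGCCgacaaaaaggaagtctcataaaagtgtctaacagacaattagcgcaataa
The most distal IME1 peak, centred 1995 bp before the start, lay between 2 copies of ACCTCAA, the core letters bound by Rme1, which were also searched after the values were seen and lay near 1.23% of all peaks (chrX:607596-607696, - strand, with the copies and 1 GCGGC, here GCCGC, in capitals).
IME1 peak with RME1 letters: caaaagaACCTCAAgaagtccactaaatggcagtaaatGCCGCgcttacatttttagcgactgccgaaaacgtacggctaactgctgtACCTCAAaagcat
SPO11 had GGCGGC only inside the gene, 164 bp after the start, and none upstream. These matches describe the sequence and do not show that a factor was bound.

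The comparison at 5 min asks whether footprints at these promoters differed between the strains soon after release. The study had already described, from these data, a reduced Ume6 footprint in the NDT80 promoter at the same time point. A lower NDT80 footprint was therefore known before the count was set against all high-confidence peaks, and the count is not independent of that choice of time. At 5 min, 4 of the 12 high-confidence peaks differed by 2-fold or more between the strains, 2 higher and 2 lower in SSDDCS. Over all high-confidence peaks the share past 2-fold at 5 min was 14.1%, with 6.84% higher and 7.29% lower in SSDDCS, and it was 16.5% among the 4224 of the same depth as the members. The peaks past 2-fold were the strongest NDT80 peak and the IME2 peak at -468 bp, both lower, and the IME2 peak at -818 bp and the IME1 peak at -1095 bp, both higher. In G1, 2 of the 12 were past 2-fold, against 8.52% of all high-confidence peaks, and these were other peaks, IME1 at -1995 bp and SPO13 at +978 bp. The interval of the SSDDCS share of a peak's reads left out 49.3%, the share SSDDCS had of the 2 library totals (the equal share), at 3 of the 12 at 5 min, against 14.4% of all high-confidence peaks. A pseudocount of 10 in place of 1 left 0 of the 12 past 2-fold (1.38% of all high-confidence peaks), and a limit of 3-fold left 1, IME1 at -1095 bp.

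**Figure D1:**
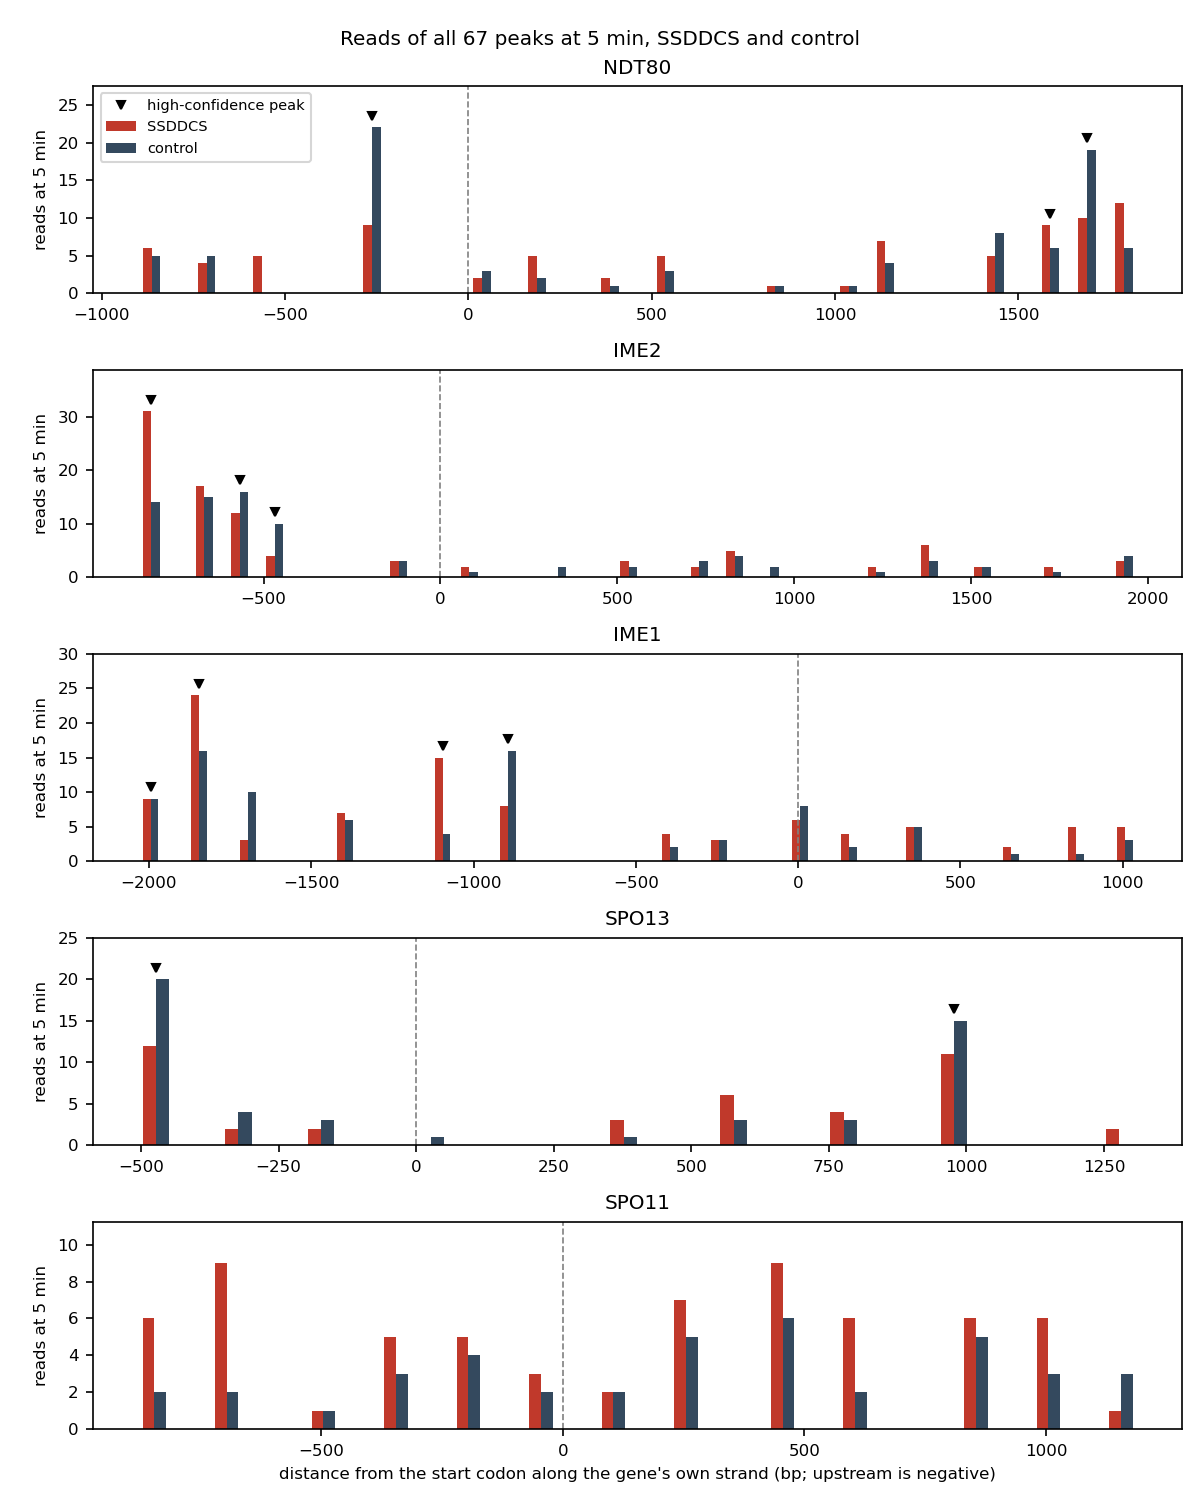
Reads of the 67 peaks in the SSDDCS (red) and control (blue) libraries at 5 min (vertical axis, reads) against distance from the start codon (horizontal axis, bp along the strand of the gene, dashed line at the start), with triangles over the 12 high-confidence peaks. The strongest NDT80 peak held 9 reads in SSDDCS and 22 in control, and the IME2 peak at -818 bp held 31 in SSDDCS and 14 in control.

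At IME1 (YJR094C, chromosome X, 604569 to 605651, - strand), the strongest of 8 upstream peaks lay 1095 bp before the start (position 606746), inside the IRT1 noncoding gene (605936 to 607424). It held 15 reads in SSDDCS and 4 in control at 5 min, a log2 ratio of 1.70, and SSDDCS gave 78.9% of the reads (95% CI 56.7 to 91.5%). In G1 it held 11 reads in SSDDCS and 16 in control. Over 12 libraries its lowest, median and highest reads were 7, 12.5 and 19 in SSDDCS and 4, 7.5 and 21 in control, so the strains overlapped. The 4 reads of control at 5 min equalled its lowest value, which was also met at 40 min. The ratio passed 2-fold at 4 of the 11 time points after G1, each time higher in SSDDCS.

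The neighbouring peak 894 bp before the IME1 start, also within IRT1, moved the other way at 5 min, with 8 reads in SSDDCS and 16 in control (log2 ratio -0.88). It was lower in SSDDCS at 8 of the 11 time points after G1 and never past 2-fold. SSDDCS held 5 to 14 reads (median 8) and control 6 to 17 (median 11.5). It was low in SSDDCS in G1 too, with 9 reads there and 17 in control. Its SSDDCS share after G1 was 43.0% (36.5 to 49.7%), against an equal share of 49.2%, whose value lies inside that interval.

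The most distal IME1 peak, at -1995 bp between the Rme1 letters shown above, held more reads in SSDDCS at 10 of 11 time points after G1 and the same number, 9, in both strains at 5 min. Its reads in SSDDCS were 19 in G1 and then 9, 15, 18, 13, 10, 8, 14, 4, 11, 10 and 6 from 5 to 60 min. In control they were 8 in G1 and then 9, 11, 17, 12, 6, 7, 7, 3, 4, 4 and 3. Both strains held fewer reads late in the course than early, and the difference was largest in G1 (log2 ratio 1.20) and at 45 min (1.27). After G1 the reads were 118 in SSDDCS and 83 in control (58.7%, 51.8 to 65.3%), a pooled log2 ratio of 0.55. This peak lies nearer to the start of RPL43B, a ribosomal protein gene transcribed away from IME1 (659 bp), than to the start of IME1. The peak at -1845 bp showed no steady direction. Its ratio ran as low as -1.41 at 25 min and as high as 1.04 at 35 min, where SSDDCS held 3 and 25 reads.

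At IME2 (YJL106W, chromosome X, 221390 to 223327, + strand), the strongest peak lay 818 bp before the start (position 220572), in the DNA it shares with the divergent gene YJL107C, whose start is 556 bp away. Its SSDDCS reads were 19 in G1 and then 31, 19, 19, 15, 16, 14, 10, 15, 9, 18 and 12 after release. Control held 16 in G1 and then 14, 14, 14, 20, 11, 9, 14, 5, 9, 12 and 9. The 31 reads at 5 min were the highest of any library at this peak, and the log2 ratio there was 1.13 (share 68.9%, 54.3 to 80.5%). The peak passed 2-fold also at 40 min (log2 ratio 1.45), and SSDDCS exceeded control at 8 of the 11. Pooled after G1 the reads were 178 in SSDDCS and 131 in control, a share of 57.6% (52.0 to 63.0%). GGCGGC and GNCACAAA were both absent within 50 bp of it.

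At the paired URS1 peaks of IME2 shown above, -568 bp stayed within 2-fold and -468 bp did not. At -568 bp SSDDCS held 12 reads and control 16 at 5 min, and no time point passed 2-fold. This peak ranged from 7 to 16 reads in SSDDCS and from 6 to 16 in control, with a median of 12 in each strain. At -468 bp SSDDCS held 4 reads and control 10 at 5 min (log2 ratio -1.10, share 28.6%, 11.7 to 54.6%), and in G1 SSDDCS held 12 and control 7. The ratio was lower in SSDDCS from 5 to 30 min and higher from 35 to 60 min. Its lowest value came at 20 min, with 6 reads in SSDDCS and 17 in control (log2 ratio -1.31). Summed after G1 the reads were 116 in SSDDCS and 127 in control, a share of 47.7% (41.5 to 54.0%) that averages stretches of opposite direction. From 5 to 30 min SSDDCS held 53 reads and control 82 (39.3%, 31.4 to 47.7%), and from 35 to 60 min SSDDCS held 63 and control 45 (58.3%, 48.9 to 67.2%), with the split chosen after the values were seen.

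At NDT80 (YHR124W, chromosome VIII, 356561 to 358444, + strand), the peak shown above at -263 bp (position 356298) was the deepest of all 67, with 14.7 normalised reads per library. SSDDCS held 17 reads in G1 and then 9, 24, 19, 17, 16, 18, 19, 13, 10, 22 and 9. Control held 18 in G1 and then 22, 13, 13, 9, 12, 15, 17, 8, 8, 12 and 13. The strains started level in G1 (log2 ratio -0.03), were past 2-fold at 5 min with SSDDCS lower (-1.16, share 29.0%, 16.1 to 46.6%), and at 9 of the 10 later time points SSDDCS was higher, by 0.19 to 0.91 on the log2 scale. The exception was 60 min, with 9 reads in SSDDCS and 13 in control. Pooled from 10 min on, SSDDCS held 167 reads and control 120 (log2 ratio 0.52), and with 5 min included 176 and 142 (0.35, share 55.3%, 49.9 to 60.7%). The low value at 5 min thus rested on 1 pair of libraries, and the surrounding 10 kb on either side was higher in SSDDCS at 5 min (log2 ratio 0.20).

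NDT80 differed from the other 4 genes in having 2 high-confidence peaks far inside the gene, at +1587 and +1687 bp near its 3′ end, before a tRNA gene at 358478 to 358569. At 5 min the first held 9 reads in SSDDCS and 6 in control, the next 10 in SSDDCS and 19 in control. After G1 the log2 ratio at +1587 bp was above 0 at 9 of 11 time points, from -0.27 to 1.32, and passed 2-fold at 10 and 35 min, higher in SSDDCS. At +1687 bp it was above 0 at 7, from -1.55 to 1.06. The NDT80 peaks farthest upstream lay in the end of EPT1 (354815 to 356081), a phospholipid synthesis gene. Reads inside NDT80 came to 33.7 per kb and library in SSDDCS and 30.3 in control, and upstream of it to 28.4 in SSDDCS and 26.8 in control.

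At SPO13 (YHR014W, chromosome VIII, 132047 to 132922, + strand), the window reached only 525 bp upstream and 475 bp past the gene. The strongest upstream peak lay 473 bp before the start (position 131574) and 128 bp before the divergent gene ARD1, an N-terminal acetyltransferase subunit. It held 12 reads in SSDDCS and 20 in control at 5 min, and 12 in SSDDCS and 11 in control in G1. It was lower in SSDDCS at 8 of 11 time points, past 2-fold at 50 min (4 reads in SSDDCS, 16 in control) and past 2-fold the other way at 35 min (10 in SSDDCS, 4 in control). Nearer the gene, the peaks at -323 and -173 bp were shallow, and both lay upstream of the URS1 shown above, more than 50 bp from it. Summed over the time points after G1, they held 50 and 48 reads in SSDDCS and 26 and 33 in control. The first of them was higher in SSDDCS at 10 of the 11 time points.

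The second high-confidence peak of the SPO13 window, at +978 bp, sat at the edge of a tRNA gene (133026 to 133107) and not in SPO13. It was lower in SSDDCS at 9 of 11 time points after G1 and in G1, where SSDDCS held 4 reads and control 10. After G1 the reads were 100 in SSDDCS and 151 in control, a share of 39.8% (34.0 to 46.0%), the lowest of the 12 peaks. ARS807, an annotated replication origin, lies just beyond the window (133438 to 133539).

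At SPO11 (YHL022C, chromosome VIII, 62961 to 64157, - strand), no peak was high-confidence, and the deepest of the 13 averaged 7.09 reads. The DNA between SPO11 and the next gene, AIM17, holds the annotated origin ARS805 (64296 to 64371), 139 bp from the SPO11 start, shown here because it is the only origin inside any of the 5 windows (chrVIII:64296-64371, - strand, no capitals).
SPO11 upstream origin: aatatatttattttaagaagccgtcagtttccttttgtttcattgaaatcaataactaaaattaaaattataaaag
The peak over it, at -195 bp, had its highest reads in G1 in both strains, 7 in SSDDCS (met again at 15 min) and 11 in control. After G1 it held 1 to 7 reads in SSDDCS and 2 to 6 in control, and the pooled reads, 38 in SSDDCS and 39 in control, were level. The strongest upstream peak, at -695 bp inside AIM17, held 9 reads in SSDDCS and 2 in control at 5 min.

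The 55 peaks under the high-confidence limit were too shallow to be compared singly. At 5 min, 8 of them were 2-fold or more higher in SSDDCS and 3 lower, and 42 of the 55 had a positive ratio. Of all peaks under the limit, 20.3% were higher, 8.17% lower and 63.4% positive. Together they held 231 reads in SSDDCS and 178 in control at 5 min. All 67 peaks gave 15 past 2-fold, a share of 22.4%, below the 26.5% of all peaks of the series. The majority of positive ratios among shallow peaks, in the series as at these genes, came with the smaller share of reads in high-confidence peaks in SSDDCS at 5 min given above, and the part of that share in it was not tested. Over the course 51 of the 55 passed 2-fold at 1 or more time points, against 91.4% of all peaks.

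Over the 11 time points after G1, 10 of the 12 high-confidence peaks passed 2-fold at least at 1 time point, 4 only higher, 3 only lower and 3 in both directions. The share among all high-confidence peaks was 64.2%, and 75.9% among those of the same depth, so the count stood near its background. The exceptions were IME2 at -568 bp and IME1 at -894 bp. The highest number of the 12 past 2-fold at any time point was 4, at 5 min, and at 15 min it was 0. Pooled after G1, the interval of the SSDDCS share left out the equal share of 49.2% at 5 of the 12, against 20.4% of all high-confidence peaks. Named by their shares, these were IME1 at -1995 bp (58.7%), IME2 at -818 bp (57.6%) and IME1 at -1095 bp (57.2%), all higher in SSDDCS, NDT80 at -263 bp (55.3%), also higher, and the peak at the tRNA gene (39.8%), which was lower.

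**Figure D2:**
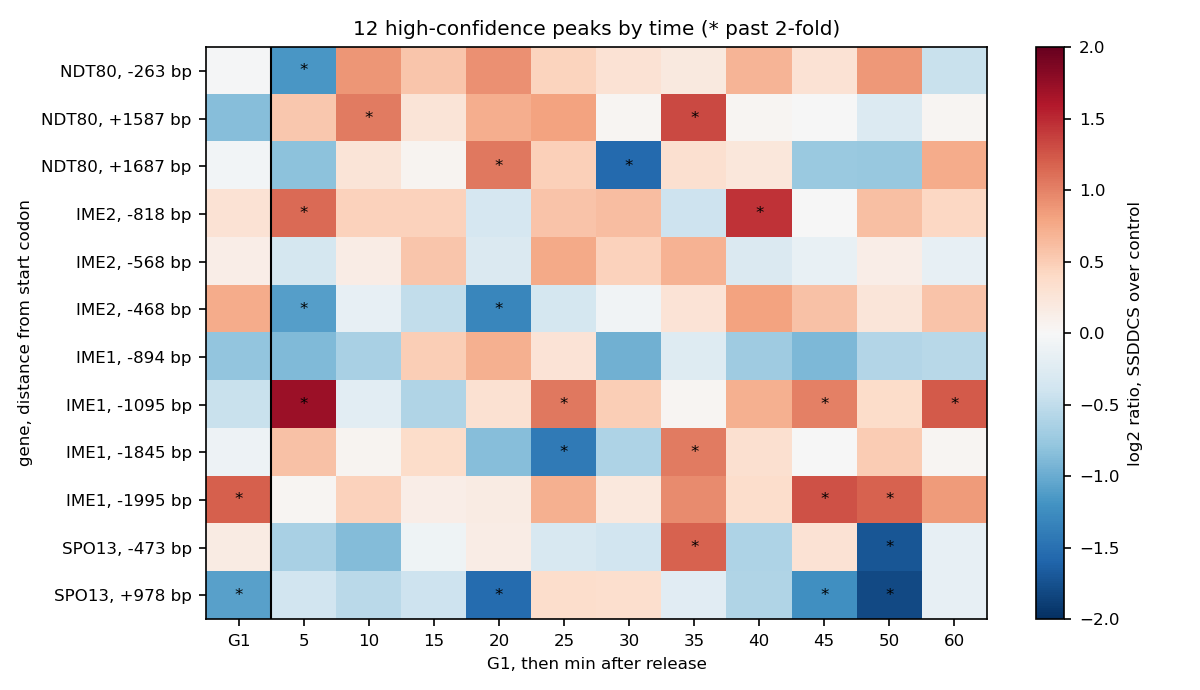
Log2 ratio of SSDDCS over control (colour, scale -2 to 2) at the 12 high-confidence peaks (rows, named by gene and distance from the start codon) in G1 and at 11 time points (columns, min), with asterisks at ratios past 2-fold. At 5 min IME2 at -818 bp and IME1 at -1095 bp take the opposite colour to IME2 at -468 bp and IME1 at -894 bp, and IME1 at -1995 bp is above 0 in every column, at 5 min by the scaling alone.

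**Figure D3:**
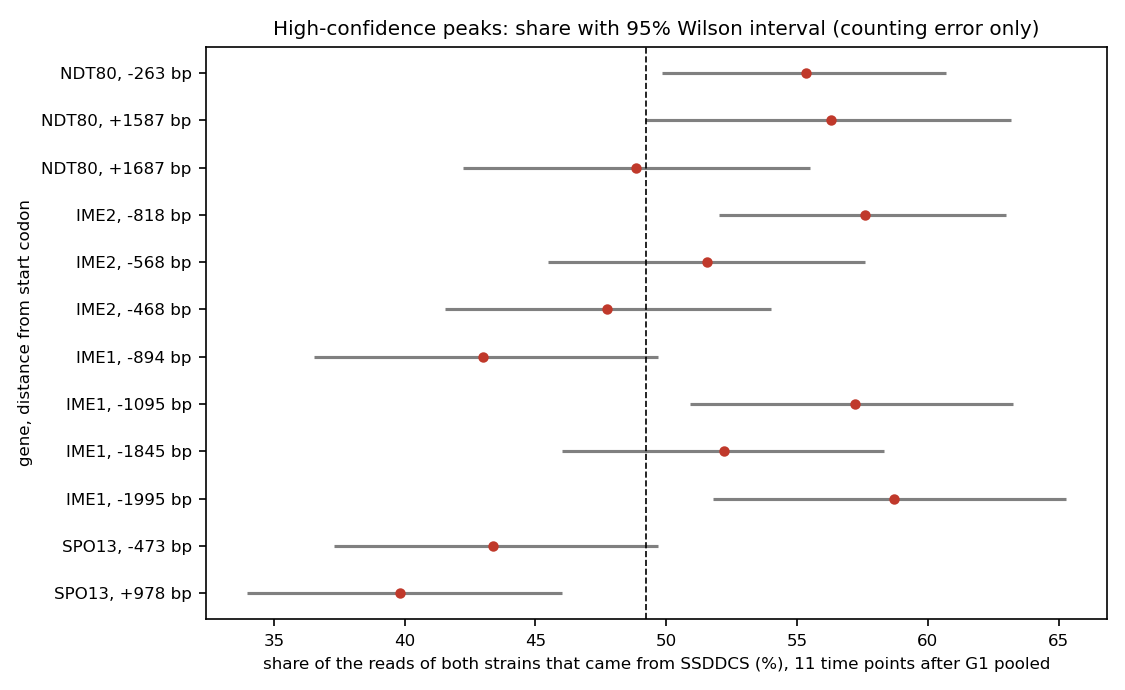
Share of the reads of both strains that came from SSDDCS (horizontal axis, percent, 11 time points after G1 pooled) at the 12 high-confidence peaks (vertical axis), with 95% Wilson intervals for counting error and a dashed line at the equal share of 49.2%. The shares run from 39.8% at SPO13 +978 bp to 58.7% at IME1 -1995 bp.

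Summed over the upstream window (1000 bp, 2000 bp for IME1), reads were compared gene by gene. At SPO13 this window runs into ARD1 (130730 to 131446), and only 3 of the 6 peaks summed were among the 67. At 5 min 1 of the 5 sums passed 1.5-fold, SPO11, with 29 reads in SSDDCS and 14 in control (log2 ratio 1.04, share 67.4%, 52.5 to 79.5%), against 15.7% of the 5491 promoters of all genes with 20 or more reads on average. Control held 31 reads there in G1, 14 at 5 min and 16 at 10 min, and 23 to 35 from 15 min on, while SSDDCS held 19 to 37 throughout. With 500 bp upstream the SPO11 log2 ratio at 5 min was 0.48, inside the 1.5-fold limit. The SPO11 peaks at -695 and -845 bp, both inside AIM17, held 9 and 6 reads in SSDDCS and 2 each in control at 5 min. IME2 held 67 reads in SSDDCS and 58 in control at 5 min, and IME1 held 73 in SSDDCS and 66 in control. NDT80 held 24 in SSDDCS and 32 in control, and SPO13 held 25 in SSDDCS and 39 in control. The SPO13 log2 ratio, -0.58, was just inside the 1.5-fold limit. It passed that limit, lower in SSDDCS, with scaling without the ribosomal DNA (-0.65), relative to its flanks (-0.67), minus G1 (-0.59), with 500 bp upstream (-0.68) and with high-confidence peaks only (-0.65). It stayed inside the limit with the gene body added (-0.26), without its strongest peak (-0.48) and with scaling to the high-confidence total (-0.45). The shares of IME2, IME1, NDT80 and SPO13, all 4, had intervals that held the equal share. The NDT80 sum rested on its strongest peak, since its log2 ratio of -0.36 became -1.16 with 500 bp upstream, which holds that peak alone, and 0.57 without that peak.

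Pooled after G1, no promoter of the 5 passed 1.5-fold, and 0.455% of all promoters did. The pooled log2 ratios were all above 0, at 0.19 for IME1 (737 reads in SSDDCS, 667 in control), 0.18 for SPO11 (302 in SSDDCS, 275 in control), 0.17 for IME2 (543 in SSDDCS, 497 in control), 0.14 for NDT80 (315 in SSDDCS, 294 in control) and 0.06 for SPO13 (368 in SSDDCS, 364 in control). Only the IME1 interval left out the equal share (52.5%, 49.9 to 55.1%). The ratios over time were more spread, with an SD over 11 time points of 0.62 for NDT80, 0.51 for SPO11, 0.45 for SPO13, 0.29 for IME2 and 0.23 for IME1. SSDDCS held more than control at 9 of 11 time points for IME2 and for IME1, and at 6 for the remaining genes. In G1 IME2 was already higher in SSDDCS, with 61 reads there and 44 in control (0.52), and the other 4 lay between -0.19 and 0.05.

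**Figure D4:**
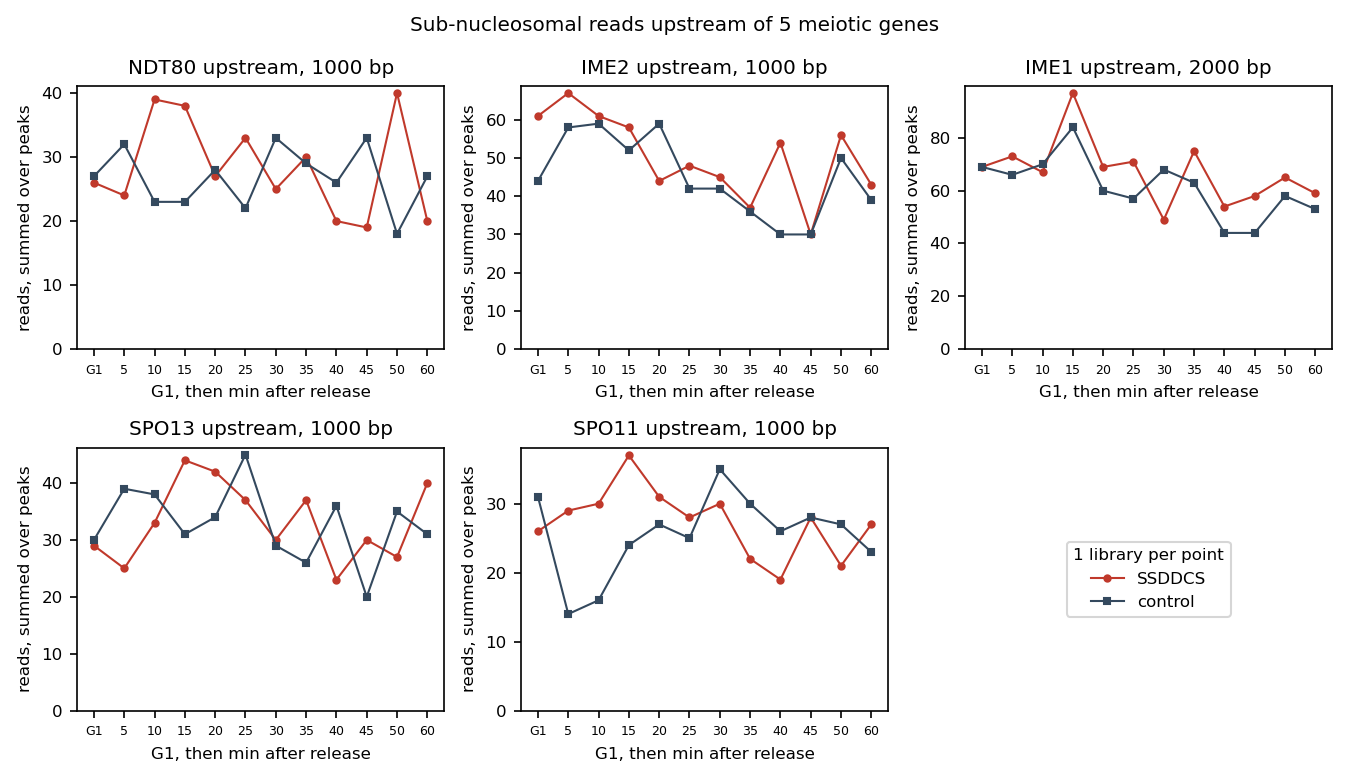
Reads summed over the upstream peaks of each gene (vertical axis, reads from 0) in G1 and from 5 to 60 min after release (horizontal axis), for SSDDCS (red circles) and control (blue squares), 1 library per point. The lines cross repeatedly at NDT80, SPO13 and SPO11, and the low control points of SPO11 at 5 and 10 min are 14 and 16 reads.

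Within a strain, upstream reads of IME2 lay below their G1 level at 9 of 11 time points in SSDDCS and at 6 in control. Those of IME1 did so at 6 in SSDDCS and at 8 in control. Those of SPO11 did so at 3 in SSDDCS and at 9 in control, where the lowest log2 ratio to G1 was -1.14 at 5 min. Those of NDT80 did so at 5 in SSDDCS and 4 in control, and those of SPO13 at 3 in SSDDCS and 2 in control. In SSDDCS the IME2 sum was lowest at 45 min, at a log2 ratio to G1 of -0.93, and in control at 40 min (-0.47). IME1 was lowest at 30 min in SSDDCS (-0.45) and at 40 min in control (-0.57). Peaks in the 10 kb on either side of IME2, and of IME1, fell below G1 at 1 of 11 time points in SSDDCS. In control they did so at 0. At NDT80 they did so at 0 time points in SSDDCS and at 5 in control, where the lowest log2 ratio to G1 was -0.31 at 20 min. At IME2 the flanks were highest at 20 min in SSDDCS (log2 0.44) and at 35 min in control (0.28), and at NDT80 at 20 min in SSDDCS (0.43) and at 40 min in control (0.17). At IME1 they were highest at 35 min in SSDDCS (0.34) and at 20 min in control (0.48). The number of copies of DNA per cell changes in S phase, and a change in copies and a change in occupancy cannot be told apart from these counts. The totals used for scaling also include the ribosomal DNA, which took 36.3% of the SSDDCS reads in G1 and 25.8% at 60 min. In control it took 35.2% in G1 and 30.0% at 60 min. At 20 min its share was 30.6% in SSDDCS and 36.3% in control. The part of these shares in the changes from G1 was not tested. After G1 the flanks differed between strains by a pooled log2 ratio of 0.14 at NDT80, 0.11 at SPO11, 0.06 at IME2, 0.01 at SPO13 and -0.03 at IME1.

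Windows and genes differ in length, so the share of reads upstream depends on it. Upstream peaks took 76.8% of the reads of gene and upstream window at IME1 in SSDDCS and 72.9% in control. At SPO13 they took 67.1% in SSDDCS and 72.7% in control, and at IME2 57.7% in SSDDCS and 53.9% in control. At SPO11 they took 44.9% in SSDDCS and 41.6% in control, and at NDT80 30.9% in SSDDCS and 31.9% in control. Per kb, the ratio of upstream reads to reads inside the gene was 2.64 at IME2 in SSDDCS and 2.26 in control, 1.80 at IME1 in SSDDCS and 1.45 in control, and 1.78 at SPO13 in SSDDCS and 2.33 in control. It was 0.977 at SPO11 in SSDDCS and 0.852 in control, and 0.842 at NDT80 in SSDDCS and 0.884 in control. Averaged over all 24 libraries, IME2 was the deepest at 47.6 normalised reads per kb and library, above 80.9% of all promoters, and SPO13 (33.0), IME1 (32.1), NDT80 (27.6) and SPO11 (26.5) lay at or below the median promoter (33.6).

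Other genes of the pathway were read from lists, by their 1000 bp upstream sums. Of the early meiotic genes, 19 of 22 had enough upstream reads, and at 5 min 3 were past 1.5-fold higher in SSDDCS and 0 lower, against 6.92% higher and 8.78% lower of all promoters. The highest was RED1, a meiotic chromosome axis gene (log2 ratio 1.10 at 5 min), named after its value was seen. Of 18 middle genes, 0 were higher and 3 lower. In either direction both lists lay close to the 15.7% of all promoters. Pooled after G1, no gene of either list passed 1.5-fold, and the medians were 0.02 for early and -0.003 for middle genes, against -0.01 over all genes. The most changed early genes were HOP1, a chromosome axis gene (0.38), MND1, a recombination gene (0.34), and MSH5 (-0.26), whose product stabilises crossovers. Among middle genes they were SMA2 (-0.28), SPR6 (0.22) and CDA2 (-0.21), a chitin deacetylase of the spore wall.

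Genes for the repressors themselves were also near 0. Of 9 with enough reads, 3 had a positive pooled ratio and the median was -0.13, with SUM1 (-0.31), ITC1, an Isw2 partner (-0.28), and HST1 (-0.14) lowest. ITC1 was also the only repressor gene past 1.5-fold at 5 min (1.08, 32 reads in SSDDCS and 15 in control), in the opposite direction to its pooled ratio. The 9 regulators of IME1 had a median of -0.01, with RIM101 (0.24) and RIM15 (0.22), a kinase that activates the meiotic programme, highest and RIM11 (-0.13) lowest. Of the Ume6 targets outside meiosis, the arginine catabolism gene CAR1 was lower in SSDDCS at all 11 time points after G1 (pooled log2 ratio -0.23, 836 reads in SSDDCS and 1012 in control). CAR1 was already lower in G1 (log2 ratio -0.13), and the share of all promoters lower at every time point is not given here. Pooled after G1, CAR2 was higher (0.17) and the inositol synthesis gene INO1 was 0.06.

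The members' upstream sums were also compared over the 24 libraries. The highest correlation of log2 upstream reads between members was 0.51, for IME2 with IME1. Among 5467 to 5477 genes over 20 kb away, the most alike by Pearson correlation were YOR293C-A (0.60), VMA2 (0.57) and ZRC1 (0.57) for NDT80, PSA1 (0.76), YNL194C (0.67) and GAS1 (0.65) for IME2, and NRT1 (0.72), CFD1 (0.66) and PGS1 (0.66) for IME1. They were IRC18 (0.66), TRF5 (0.61) and YOR376W (0.59) for SPO13, and HRT1 (0.69), RED1 (0.66) and YLR464W (0.66) for SPO11. These are the highest of all the values compared, from 24 libraries that share strain, time and depth, and they carry no test.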

How the data were processed

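Sub-nucleosomal MNase-seq was done in 24 libraries, 1 per strain and time point. The authors aligned reads with Bowtie2 2.2.6 and SAMtools 0.1.19 to S288C (sacCer3, the R64 build), kept fragments under 100 bp, sampled equal reads per fragment size, called peaks on the merged libraries and deposited whole-number counts per peak. The sampling removes differences in depth before counting. The other deposited column, the peak position, was used as given and fell within R64 chromosome lengths. The number of value columns with no sample was 0.

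Counts were scaled to the mean library total, and ratios are differences of log2(reads + 1), so ratios at low counts are understated. Promoter sums cover 1000 bp upstream (2000 bp for IME1), and pooled ratios use summed reads without a pseudocount. Gene coordinates came from RefSeq R64, where the start codon stands in for the transcription start. Peaks were called past 2-fold and promoter sums past 1.5-fold. No test was run because groups held 1 library and each strain 1 culture. The intervals were run on simulated counts that held counting error only, so other differences between libraries were not checked. Over all high-confidence peaks the intervals left out the equal share at 14.4% at 5 min and at 20.4% pooled after G1. Python 3.11.15, numpy 2.4.6 and pandas 2.3.3 were used. Named were the strongest peak, peaks within 50 bp of GGCGGC, all high-confidence peaks, 3 genes per list by size of the pooled ratio and 3 most-alike genes. Windows, lists, members and the 5 min time point were chosen with earlier results of these data known. ZIP4 is SPO22 in RefSeq. Alternatives were other folds, pseudocounts, filters, scalings and windows, and time points left out.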

Additional observations from a re-analysis of the deposited data

Results flagged for a closer look

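Between G1 and 5 min, the upstream sums of 4 of the 5 genes, and 9 of the 12 high-confidence peaks, had scaled changes of opposite sign in the 2 strains, of which SPO13 at -473 bp held 12 SSDDCS reads at both times. The difference between strains was not tested, since each value is 1 library, and 51.8% of all high-confidence peaks had opposite signs too. As log2 changes of SSDDCS minus control, the upstream sums gave 1.23 at SPO11, -0.59 at SPO13, -0.36 at NDT80 and 0.13 at IME1. Among peaks, IME1 gave 2.16 at -1095 bp, where SSDDCS held 15 reads at 5 min and 11 in G1 and control 4 at 5 min and 16 in G1, and -1.16 at -1995 bp. IME2 gave -1.85 at -468 bp, 0.84 at -818 bp and -0.49 at -568 bp. NDT80 gave -1.14 at -263 bp, 1.40 at +1587 bp and -0.77 at +1687 bp, and SPO13 gave -0.82 at -473 bp.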

How the results depend on the processing

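Of 159 alternatives, 141 left a value within its counting interval, or a count within 1.5 times. SPO11 at 5 min was the only upstream sum called, and none of its 7 alternatives turned its direction. With 500 bp upstream its log2 ratio was 0.48, inside the 1.5-fold limit, so the call was lost there. Sums not called did change sign, with 3 alternatives for IME2 at 5 min and 2 after G1. The sign also changed with 1 alternative each for NDT80 and IME1, at 5 min and after G1, and for SPO13 after G1. Some of these lay within the counting interval, as without the strongest peak at 5 min for IME2 (-0.24) and IME1 (-0.06). The 4 high-confidence peaks past 2-fold at 5 min became 8 at 1.5-fold (37.4% of all peaks that passed the same filter), 1 at 3-fold (2.29%), 0 with a pseudocount of 10 (1.38%), 8 of 27 peaks with a mean of 5 reads or more (21.0%) and 15 of 67 peaks with no filter (26.5%). The 10 peaks past 2-fold at 1 or more time points became 3 at 3-fold (15.4%), 0 with a pseudocount of 10 (4.79%), 23 of 27 with a mean of 5 reads or more (83.3%) and 61 of 67 with no filter (91.4%). For the upstream sum at 5 min, NDT80 gave -1.16 with 500 bp upstream and with high-confidence peaks only, and 0.57 without its strongest peak. IME2 gave -0.27 minus its G1 ratio and -0.77 with 500 bp upstream. For the sum after G1, IME2 gave -0.34 minus its G1 ratio and -0.10 with 500 bp upstream, IME1 gave -0.20 with 500 bp upstream, and SPO13 gave -0.34 with high-confidence peaks only. The shorter windows hold fewer peaks. The cause of the others was not tested. Leaving out 1 time point gave pooled ratios from 0.04 to 0.23 at NDT80, 0.11 to 0.23 at IME2, 0.17 to 0.24 at IME1, 0.005 to 0.12 at SPO13 and 0.11 to 0.24 at SPO11. The tRNA peak and the SPO13 window inside the rule were left out and taken after seeing the data, and gave counts of 4 and 9 and sums of -0.68 at 5 min and 0.10 after G1. SPO11 had no high-confidence peak, so it has no such value. Depth, a median of 4.62 reads per peak, limits every single-peak comparison. No paired analysis was possible because the groups compared share 1 replicate number, and time points come from 1 culture per strain. Without the ribosomal DNA in the scaling, an alternative added after seeing the data, the IME1 peak at -1995 bp was higher in SSDDCS at 10 time points and gave -0.03 at 5 min.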

Other observations

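In G1, before release, 19 of the 67 peaks (28.4%, against 23.5% of all peaks) were past 2-fold between the strains, 2 of them high-confidence, IME1 at -1995 bp (log2 ratio 1.20) and SPO13 at +978 bp (-1.09), and from 12 to 25 of the 67 were past 2-fold at each time point after G1, that is 17.9% to 37.3%, against 22.3% to 27.8% of all peaks.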
